A study of Mus musculus with 8 samples.

Results

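Genes for basement membrane proteins and for integrins, the cell surface receptors that bind them, were examined in a hepatocyte line with and without a stably expressed zinc finger gene. The 37 gene symbols are 10 laminin chains, 6 type IV collagen chains, 8 other matrix genes and 13 integrin subunits, out of 22180 genes tested. They were chosen by symbol, with their values for Zfp125 against empty vector on these same arrays already known. The counts and adjusted p-values of that contrast therefore describe these arrays and are not independent evidence about the list. Every transcript cluster (the array's unit for a transcribed region) whose annotation carried a listed symbol was taken, which gave 40 of 41345 clusters.

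The cells were AML12, a line of mouse hepatocytes, grown under G418 selection and then in control medium. One group expressed Zfp125 and the other carried the empty vector (EV), with 4 arrays each. The arrays compare gene expression between these groups. The labels give no passage, clone or culture for a sample, so the errors and p-values may reflect technical spread alone.

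Basement membranes are thin sheets of matrix beneath epithelia and around muscle, fat and nerve fibres. Laminin trimers of an alpha, a beta and a gamma chain form one network and type IV collagen another, and nidogens, perlecan and agrin bind the networks together. Integrins are dimers of an alpha and a beta subunit that link this matrix to the actin cytoskeleton. In liver, the space between hepatocytes and sinusoids holds little continuous basement membrane, and laminin-rich membranes lie around bile ducts and larger vessels.

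All values are log2 expression values as deposited, on which no count or depth exists, and the number of arrays limits the precision. Array medians were 4.32 to 4.37, and arrays correlated with one another at 0.977 to 0.984 across clusters. Changes are Zfp125 minus EV, given ± the SE from limma, and means are given with the SD of 4 arrays. A gene was called at an adjusted p under 0.05 after Benjamini-Hochberg adjustment over all 22180 genes. Each cluster has its own probes, so no gene's level was set against another's, and the median of all clusters serves only to mark dim genes. No cluster is annotated with the symbol Zfp125, so the expressed gene is not analysed here and the group labels were not checked against it.

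Some markers of hepatocytes differed between the groups. Of 11 measured hepatocyte markers 6 were called lower and 0 higher, against 0.636% and 0.446% of all genes. Among those called was Alb, the gene of serum albumin, with means of 12.96 in EV and 12.48 in Zfp125 cells. The 5 not called had changes of -0.84 to 0.08, the highest in Ttr. The mean over the list was 9.07 to 9.41 on the EV arrays and 8.48 to 8.84 on the Zfp125 arrays. By limma 0 of 16 markers of stellate cells and fibroblasts and 0 of 14 of endothelium, cells that make much of the liver's matrix, were called, with 1 and 0 at an unadjusted p under 0.05, a threshold that 10.9% of all genes passed. Their list means were 4.28 to 4.33 and 4.33 to 4.37 on EV arrays and 4.23 to 4.37 and 4.25 to 4.36 on Zfp125 arrays, beside a median of all clusters of 4.35. Macrophage (14 measured) and lymphocyte (9 measured) markers had list means of 3.97 to 4.17 and 3.75 to 4.06 on EV arrays and of 3.98 to 4.05 and 3.92 to 4.02 on Zfp125 arrays. By limma 0 of either were called, with 0 and 1 at an unadjusted p under 0.05. Of 10 markers of bile duct cells 0 were called by limma and 3 had an unadjusted p under 0.05, with list means of 5.58 to 5.72 on EV and 5.59 to 5.68 on Zfp125 arrays. These were Sox9, at 0.28, and Tspan8 and Aqp1, at -0.40 and -0.22. Levels within the list varied widely. Means in EV and Zfp125 cells were 9.75 and 10.04 for Sox9 and 8.15 and 8.01 for Krt19. In both groups 3 of the 10 were below the median of all clusters, among them Epcam at 2.73 and 2.76. In bulk RNA, fewer cells of a type and less RNA per cell cannot be told apart. The part of these markers in the matrix values was not tested.

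RefSeq promoter windows of build GRCm38.p6, 300 bases long and reaching 250 bases before the start site, were held for 25 of the 37 genes. Upstream sequence is shown for 3 genes whose groups of arrays did not overlap and whose upstream sequence lies outside gene bodies. All 3 had changes above 0. Other members met these conditions and are not shown, among them Itgb5, in which every Zfp125 array was lower. Ntn4 had the largest rise of the list, Itga5 was the integrin called higher, and Lamb2 encodes a chain of a laminin trimer described below. Only bases outside annotated gene bodies are printed, 5′ to 3′ on the gene's strand, and capitals mark a GC box. The Ntn4 sequence is chr10:93640799-93641048 on the plus strand, Itga5 is chr15:103366792-103367041 on the minus strand, and Lamb2 is chr9:108479612-108479846 on the plus strand.
Ntn4: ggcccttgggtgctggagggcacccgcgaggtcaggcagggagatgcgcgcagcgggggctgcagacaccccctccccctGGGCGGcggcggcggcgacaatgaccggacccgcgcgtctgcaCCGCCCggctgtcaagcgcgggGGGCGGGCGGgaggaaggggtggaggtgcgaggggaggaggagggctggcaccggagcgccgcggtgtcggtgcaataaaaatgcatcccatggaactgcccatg
Itga5: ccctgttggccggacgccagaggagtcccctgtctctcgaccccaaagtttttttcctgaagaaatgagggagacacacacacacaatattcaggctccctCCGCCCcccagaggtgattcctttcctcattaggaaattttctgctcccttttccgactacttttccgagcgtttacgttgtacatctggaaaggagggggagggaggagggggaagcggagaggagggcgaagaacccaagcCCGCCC
Lamb2: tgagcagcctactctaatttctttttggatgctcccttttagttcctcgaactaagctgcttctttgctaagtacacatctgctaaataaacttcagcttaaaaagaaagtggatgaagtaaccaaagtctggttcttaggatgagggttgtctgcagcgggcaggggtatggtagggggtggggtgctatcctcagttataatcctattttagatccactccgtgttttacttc

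The Ntn4 window held 4 copies of the GC box, the letters GGGCGG on either strand, of which 2 overlap, and the Itga5 window held 2. The Lamb2 window held 0, and its GC content of 44.0% was below the 72.0% of Ntn4 and the 58.7% of Itga5. Among windows not printed, that of Itgb5 held 3 and that of Hspg2 held 5, with changes of -0.44 and 0.06. Agrn, with a change of 0.48, had windows with 2 and 12. Whether GC boxes go with the changes was not tested. Over all the members' windows, 21 of 30 held a GC box, against 35.7% of all 32851 windows in the table. Their median GC content was 62.3%, against 52.7% over all windows. The letters of the CCAAT box, searched on both strands, were in 9 of the 30 windows and in 37.4% of all windows. A TATA box, searched as TATAAA, was in 0 of the 30 and in 13.6% of all windows. An AP-1 site, searched as TGANTCA, was in 1, a window of Itga3, and in 7.81% of all windows. The letters of no motif contain those of another, and a match describes the sequence only.

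In Zfp125 cells, 5 of the 37 genes were called higher and 1 lower. Those called higher were the laminin chains Lamc1 and Lama5, the matrix genes Ntn4 and Agrn, and the fibronectin receptor subunit Itga5. The gene called lower was the integrin subunit Itgb3. Over all genes tested, 0.446% were called higher and 0.636% lower, and since the list was assembled with this contrast known, nothing is read from the difference. Values of the groups did not overlap, with every Zfp125 array higher, in 14 of the 37 genes, and with every one lower in 3, against 3.71% and 3.58% of all genes. The median change was 0.09 over the 37 genes and 0.00 over all genes (-0.00268). The 31 genes that were not called had changes of -0.52 to 0.45. Without variance moderation the calls of Lamc1, Lama5, Itga5 and Itgb3 ended (adjusted p = 0.0711, 0.0963, 0.121 and 0.0754), as they did in a fit of all clusters together (0.109, 0.13, 0.128 and 0.0876). With the replicate number as a block in the fit, the calls of these genes ended too (0.0943, 0.115, 0.0616 and 0.0635).

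**Figure D1:**
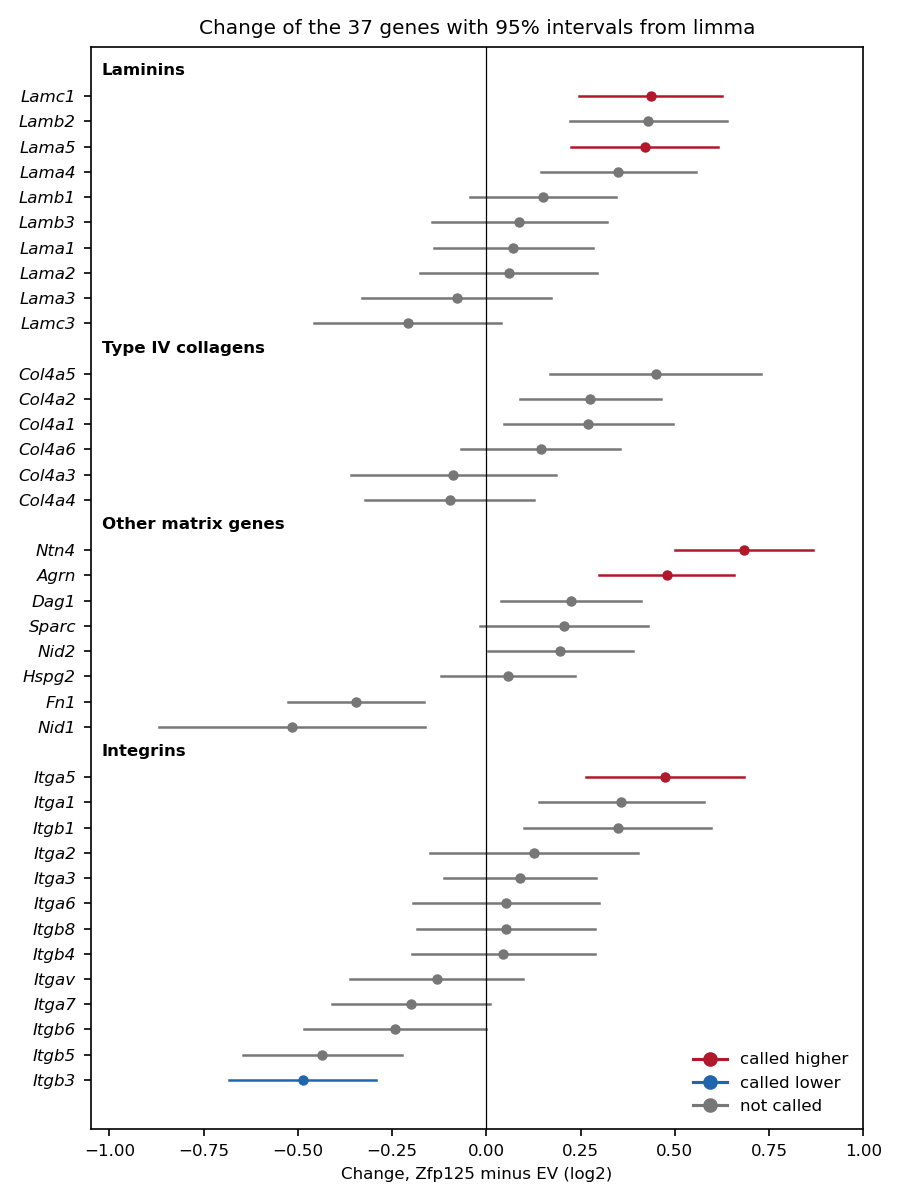
Change of each of the 37 genes, Zfp125 minus EV on the log2 scale (horizontal axis), with the 95% interval from limma, by class. Red marks the 5 genes called higher, blue the 1 called lower and grey the 31 not called. Ntn4 lies farthest to the right at 0.68.

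Lama5, Lamb2 and Lamc1 encode the alpha, beta and gamma chains of laminin-521, a trimer of mature epithelial basement membranes, and had changes of 0.42 to 0.44. Lamc1, the gamma chain of most laminins, had values of 7.70, 7.63, 7.75 and 7.59 on EV arrays and 8.08, 8.23, 8.03 and 8.09 on Zfp125 arrays. All Zfp125 arrays lay above all EV arrays, and the change was 0.44 ± 0.09, a 1.35-fold higher level (limma, adjusted p = 0.0318). Lama5, the alpha chain that most epithelia use, had values of 7.05, 6.95, 6.86 and 7.06 in EV and 7.40, 7.51, 7.39 and 7.30 in Zfp125 cells. The groups again did not overlap, and the change was 0.42 ± 0.09 (limma, adjusted p = 0.044). Lamb2, the beta chain found in kidney, muscle and vessel membranes, had values of 7.64, 7.78, 7.45 and 7.72 in EV and 8.04, 8.10, 8.18 and 7.998 in Zfp125 cells. Its groups did not overlap either, and its change of 0.43 ± 0.10 stood just outside the threshold (limma, adjusted p = 0.0544).

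The calls of Lamc1 and Lama5 rested on having all 8 arrays. With any 1 array left out neither passed, with adjusted p-values of 0.0529 to 0.116 for Lamc1, highest without Zfp125 replicate 2, and of 0.0615 to 0.145 for Lama5, highest without the same array. Their changes stayed between 0.40 and 0.46 and between 0.38 and 0.45 in these fits. With each array centred on its median, Lama5 had an adjusted p of 0.0583. Lamb2 passed in 0 of 8 omissions of 1 array and in 2 of 9 other settings, with adjusted p-values up to 0.175. Those settings were a trended, robust prior (adjusted p = 0.00516) and the genes above the median level (adjusted p = 0.0185).

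The remaining 7 laminin chains were not called. Lama4, the alpha chain of vessel and muscle laminins, had a change of 0.35 ± 0.10 without overlap of the groups (limma, adjusted p = 0.129), with values of 4.19, 4.10, 4.11 and 4.41 in EV and 4.58, 4.46, 4.58 and 4.59 in Zfp125 cells. Its EV mean of 4.20 was below the median of all clusters and its Zfp125 mean of 4.55 above it. Lamb1, the beta chain that joins Lama5 and Lamc1 in laminin-511, had a change of 0.15 ± 0.09 (95% interval -0.04 to 0.34). Lama3 and Lamb3, laminin chains of stratified epithelia, had changes of -0.08 ± 0.12 and 0.09 ± 0.11. Lama1, the alpha chain of early embryonic membranes, and Lama2, that of muscle, had changes of 0.07 ± 0.10 and 0.06 ± 0.11 and were below the median of all clusters in both groups. Lamc3, a gamma chain of few tissues, had a change of -0.21 ± 0.11 (limma, adjusted p = 0.544). Over the 10 laminins 2 were called higher and 0 lower (0.446% and 0.636% of all genes), and the median change was 0.12. As for the whole list, nothing is read from the counts by class.

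**Figure D2:**
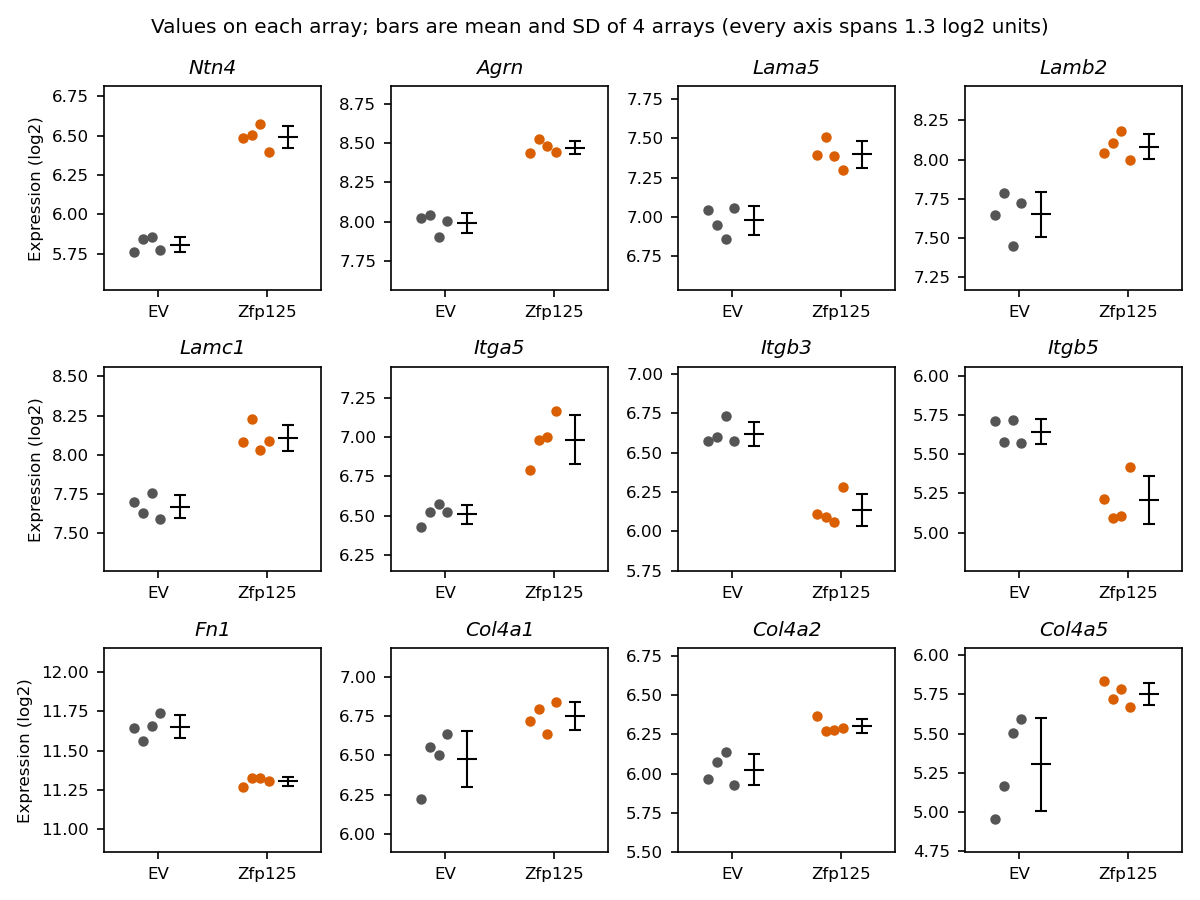
Log2 expression (vertical axis, 1.3 units in every panel) of 12 genes on each of 4 EV arrays (grey) and 4 Zfp125 arrays (orange), with mean and SD beside the points. All 12 are from the genes whose groups did not overlap, so the groups are apart in every panel. They overlapped in 20 of the 37 genes, which are not shown here. In Col4a1 the groups are apart by little, with the highest EV value at 6.63 and the lowest Zfp125 value at 6.64.

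Of the 6 type IV collagen chains 0 were called by limma, 3 had an unadjusted p under 0.05 (10.9% of all genes), and the median change was 0.21. Their genes lie as neighbours in opposite orientation, Col4a1 beside Col4a2, Col4a3 beside Col4a4 and Col4a5 beside Col4a6, and chains of each pair assemble with one another. Col4a1, the main chain of nearly all basement membranes, had values of 6.22, 6.55, 6.51 and 6.63 in EV and 6.72, 6.80, 6.64 and 6.84 in Zfp125 cells. Col4a2, its partner, had 5.96, 6.07, 6.14 and 5.93 in EV and 6.37, 6.27, 6.28 and 6.29 in Zfp125 cells. In both genes every Zfp125 array was higher than every EV array, and the changes were 0.27 ± 0.10 and 0.28 ± 0.09 (limma, adjusted p = 0.336 and 0.209).

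Col4a5, a chain of kidney and lung membranes, had values of 4.95, 5.16, 5.50 and 5.59 in EV and 5.83, 5.72, 5.79 and 5.67 in Zfp125 cells. Its EV arrays spread widely, with an SD of 0.30 against 0.07 in Zfp125 cells, and the change was 0.45 ± 0.13 (limma, adjusted p = 0.159). Its neighbour Col4a6, a chain of smooth muscle membranes, had a change of 0.14 ± 0.10 (95% interval -0.07 to 0.35). Col4a3 and Col4a4, chains of the glomerular membrane of kidney, had changes of -0.09 ± 0.13 and -0.10 ± 0.10, with overlapping groups in both.

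Whether chains that assemble together also vary together from array to array was asked of the deviations of each array from its group mean. Among the 3 collagen pairs and the 3 pairs of Lama5, Lamb2 and Lamc1, over 8 arrays, none of these 6 pairs had a correlation that passed an exact permutation test within groups. For Col4a1 and Col4a2 Pearson's r was 0.09 (exact p = 0.927) and Spearman's rho -0.12 (exact p = 0.825). For Lama5 and Lamb2 r was 0.57 (exact p = 0.194) and rho 0.38 (exact p = 0.403). Without the 2 arrays farthest from the median in the first-named gene, r was 0.31. Lamb2 and Lamc1 had an r of -0.55 (exact p = 0.186) and a rho of -0.60 (exact p = 0.172), and r was -0.31 without 2 arrays. Lama5 and Lamc1 had an r of 0.05 and a rho of -0.02 (exact p = 0.901 and 0.99). Col4a3 with Col4a4 had an r of -0.32 and a rho of -0.48 (exact p = 0.26 and 0.224), and Col4a5 with Col4a6 an r of 0.04 and a rho of -0.19 (exact p = 0.891 and 0.632). Adjusted over the 6 pairs, the exact p-values of r were 0.521 to 0.927 and those of rho 0.672 to 0.99. Without the 2 farthest arrays r was -0.79 for Col4a1 with Col4a2, -0.67 for Col4a3 with Col4a4, -0.01 for Col4a5 with Col4a6 and -0.03 for Lama5 with Lamc1. These reduced values depend on which gene is named first and were not tested, so nothing is read from them.

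Among the other matrix genes 2 were called higher and 0 lower (0.446% and 0.636% of all genes), with a median change of 0.20 over the 8. Ntn4 encodes netrin-4, a secreted protein that binds laminin gamma chains and loosens laminin networks. Its values were 5.76, 5.84, 5.86 and 5.77 on EV arrays and 6.49, 6.50, 6.57 and 6.40 on Zfp125 arrays. The groups lay far apart compared with their spread, with means of 5.81 ± 0.05 and 6.49 ± 0.07 (n = 4 each). The change was 0.68 ± 0.08, a 1.61-fold higher level (limma, adjusted p = 0.00122), and the call held in all 8 omissions of 1 array and in 9 of 9 other settings. The upstream sequence of Ntn4, with its 4 GC boxes, is printed above, and any bearing of these on the change was not tested.

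Agrn encodes agrin, a heparan sulfate proteoglycan that links laminin to dystroglycan. It had values of 8.02, 8.04, 7.90 and 8.003 in EV and 8.43, 8.52, 8.48 and 8.44 in Zfp125 cells. No arrays overlapped, and the change was 0.48 ± 0.08, a 1.39-fold higher level (limma, adjusted p = 0.0137). The call ended without Zfp125 replicate 2 (adjusted p = 0.0545), with the replicate block (0.052), and in the fit of all clusters together (adjusted p = 0.0666). Dag1, which encodes the agrin and laminin receptor dystroglycan, had a change of 0.22 ± 0.09 with no overlap between groups (limma, adjusted p = 0.339). Hspg2, the gene of the proteoglycan perlecan, had a change of 0.06 ± 0.08 (95% interval -0.12 to 0.24).

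Nidogens join laminin to type IV collagen, and the values of the 2 nidogen genes lay in opposite directions. Nid1 had values of 7.25, 6.84, 6.96 and 6.78 in EV and 6.15, 6.35, 6.29 and 6.99 in Zfp125 cells. Zfp125 replicate 4 lay among the EV arrays, and the change was -0.52 ± 0.16 (limma, adjusted p = 0.213). Without that array the change was -0.70 and passed (limma, adjusted p = 0.0216), the only 1 of 8 omissions in which it did. In the other 7 the adjusted p was 0.243 to 0.436. Nid1 passed in 0 of 9 other settings, with adjusted p-values up to 0.476. A second cluster of Nid1 had a change of -0.26 ± 0.14 in the fit of all clusters (limma, adjusted p = 0.626), with values in Zfp125 cells of 5.27, 5.37, 5.31 and 5.75, the highest again on replicate 4. Nid2 had a change of 0.20 ± 0.09 without overlap of the groups (limma, adjusted p = 0.449).

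Fn1, the gene of fibronectin, which hepatocytes secrete into plasma and matrix, had values of 11.65, 11.56, 11.66 and 11.74 in EV and 11.27, 11.33, 11.32 and 11.30 in Zfp125 cells. Every Zfp125 array was below every EV array, and the change of -0.34 ± 0.08 was not called (limma, adjusted p = 0.0788). It passed in 0 of 8 omissions of 1 array and in 2 of 9 other settings, with adjusted p-values up to 0.203. Those settings were a trended, robust prior (adjusted p = 0.00104) and the genes above the median level (adjusted p = 0.0283). Sparc, a collagen-binding protein of the matrix, had a change of 0.21 ± 0.10 (limma, adjusted p = 0.498).

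**Figure D3:**
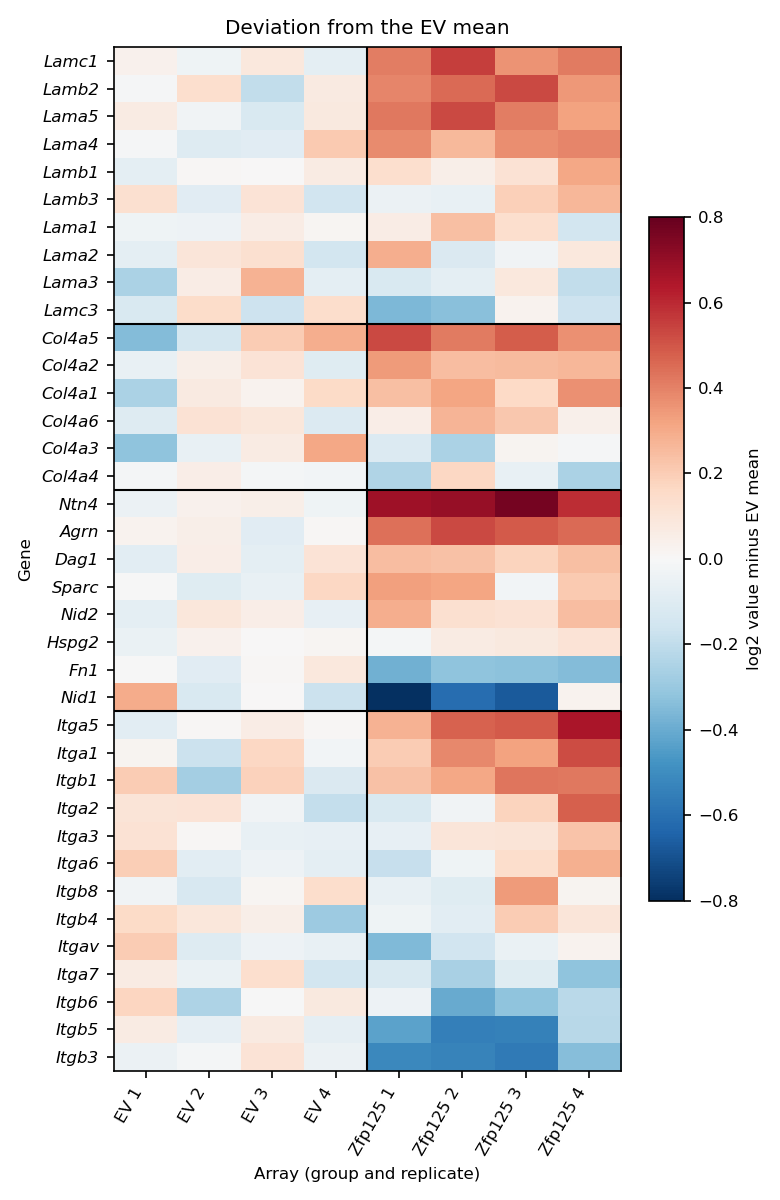
Value of each of the 37 genes (rows, by class and size of change) on each of the 8 arrays (columns), less the gene's EV mean, in log2 units from -0.8 (blue) to 0.8 (red). Lamc1, Lamb2, Lama5, Ntn4 and Agrn are above the EV mean on all 4 Zfp125 arrays, and Nid1 is below it on 3 of them.

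Of the 13 integrin subunits 1 was called higher and 1 lower (0.446% and 0.636% of all genes), with a median change of 0.05. Itga5 pairs only with Itgb1, as the main fibronectin receptor. Itga5 had values of 6.43, 6.52, 6.57 and 6.52 in EV and 6.79, 6.98, 7.000 and 7.16 in Zfp125 cells. The groups did not overlap, and the change was 0.47 ± 0.10, a 1.39-fold higher level (limma, adjusted p = 0.0349). The call held in only 1 of 8 omissions of an array, that of Zfp125 replicate 1 (adjusted p = 0.0337), and the adjusted p was 0.0658 to 0.104 in the other 7, highest without Zfp125 replicate 2. Itgb1, the beta subunit shared by most matrix-binding integrins, had values of 7.88, 7.41, 7.86 and 7.57 in EV and 7.92, 7.99, 8.11 and 8.10 in Zfp125 cells. It was higher on each Zfp125 array, with a change of 0.35 ± 0.12 (limma, adjusted p = 0.233).

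Beta subunits that join the alpha v subunit lay on the other side of 0, apart from Itgb1 and Itgb8. Itgb3, which forms the vitronectin receptor with Itgav, had values of 6.58, 6.60, 6.73 and 6.57 in EV and 6.11, 6.09, 6.06 and 6.28 in Zfp125 cells. All Zfp125 arrays were lower than all EV arrays, and Itgb3 fell by 0.49 on the log2 scale, with an SE of 0.09 and a 1.40-fold difference (limma, adjusted p = 0.0194). The call ended in 4 of 8 omissions, without EV replicate 3 (adjusted p = 0.0629) or Zfp125 replicates 1, 2 or 3 (0.071, 0.0753 and 0.0745). Itgb5, also a vitronectin receptor subunit, had values of 5.71, 5.58, 5.71 and 5.57 in EV and 5.22, 5.09, 5.11 and 5.42 in Zfp125 cells. Again there was no overlap, and the change of -0.44 ± 0.10 stood just outside the threshold (limma, adjusted p = 0.0544). Itgb5 passed in 1 of 8 omissions, that of Zfp125 replicate 4 (adjusted p = 0.0338), and in 3 of 9 other settings. Those were quantile normalization (0.0429), a trended, robust prior (0.0262) and the genes above the median level (0.0185). Elsewhere its adjusted p reached 0.175.

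Itgb6, an epithelial subunit that activates latent TGF-beta, had a change of -0.24 ± 0.11 (limma, adjusted p = 0.455) and a Zfp125 mean of 4.26, below the median of all clusters. Itgb8, a related activator, had a change of 0.05 ± 0.11 and was below the median of all clusters in both groups. The shared alpha subunit Itgav had a change of -0.13 ± 0.11 (95% interval -0.36 to 0.10), and its second, dim cluster one of 0.12 ± 0.13. Among these genes only Itgb3 was called, and the difference between the changes of Itga5 and Itgb3 was not tested.

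Of the remaining 6 subunits, receptors for laminin or collagen, 0 were called by limma, and Itga1 alone among them had an unadjusted p under 0.05. Itga1, the collagen IV receptor subunit, had a change of 0.36 ± 0.10 with no overlap between groups (limma, adjusted p = 0.151). Itga2, a collagen I receptor subunit, had a change of 0.13 ± 0.13. The laminin receptor subunits Itga3, Itga6 and Itgb4 had changes of 0.09 ± 0.09, 0.05 ± 0.11 and 0.04 ± 0.11, with intervals of -0.11 to 0.29, -0.19 to 0.30 and -0.20 to 0.29. A further cluster annotated with both Itgb4 and B230344G16Rik had a change of 0.17 ± 0.16. Itga7, the laminin receptor subunit of muscle, had a change of -0.20 ± 0.10 (limma, adjusted p = 0.483).

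**Figure D4:**
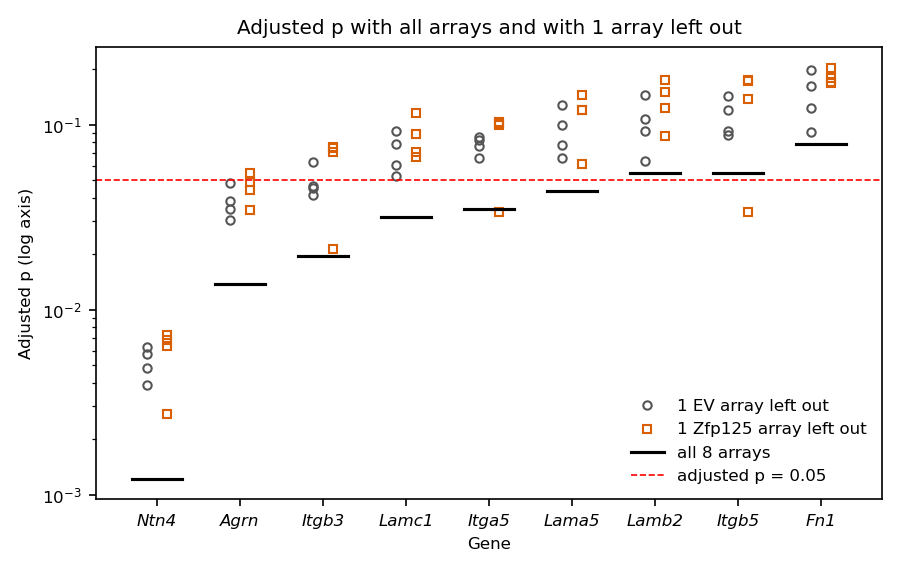
Adjusted p from limma (vertical, log axis) of 9 genes with all 8 arrays (black bars), and with 1 EV array (circles) or 1 Zfp125 array (squares) left out; the red line is 0.05. Ntn4 lies below the line throughout, Agrn crosses it in 1 omission, and Lamc1 and Lama5 lie above it in all 8.

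Genes of the surrounding pathways were taken from lists drawn up by function, and counts at an unadjusted p under 0.05 stand against 10.9% of all genes. Counts of called genes stand against 0.446% of all genes called higher and 0.636% called lower, and nothing is read from them about a list. Of 26 further basement membrane genes 1 was called higher and 0 lower, with a median change of 0.01. It was Tinagl1, a secreted protein of basement membranes, at 0.54 ± 0.10 (limma, adjusted p = 0.0261), with means of 8.42 ± 0.16 and 8.96 ± 0.13. Of 12 further integrins 0 were called, with a median of 0.08 and 6 below the median level, and Itgad had the smallest p, at 0.17 ± 0.12. At an unadjusted p under 0.05 that list also held 0 genes.

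In the matrix outside basement membranes, 1 of 34 interstitial and matricellular genes was called higher and 0 lower. Changes were above 0 in 14 and below 0 in 20 of them, and 7 had an unadjusted p under 0.05. Ccn2, the matricellular growth factor known as connective tissue growth factor, was 0.46 ± 0.10 higher (limma, adjusted p = 0.0475). Of 20 collagen folding and cross-linking enzymes 0 were called and 3 had an unadjusted p under 0.05 (10.9% of all genes), with Colgalt2, a collagen galactosyltransferase, at 0.55 ± 0.16 (limma, adjusted p = 0.175). Of 33 matrix proteases and inhibitors 0 were called and 11 had an unadjusted p under 0.05, from which nothing is read about the list. Among them Adam10, a membrane sheddase, was at 0.45 ± 0.10 (limma, adjusted p = 0.0636).

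Inside the cell, 1 of 35 genes of the integrin adhesion complex was called higher and 1 lower. Tns1, a tensin that ties integrins to actin, rose by 0.46 ± 0.10 (limma, adjusted p = 0.0449), and Rsu1, a partner of the PINCH adaptor, had a change of -0.51 ± 0.10 (limma, adjusted p = 0.0194). Of 22 other matrix receptors 0 were called and 3 had an unadjusted p under 0.05 (10.9% of all genes), with the collagen receptor kinase Ddr1 at 0.37 ± 0.09 (limma, adjusted p = 0.0892). Of 13 enzymes that glycosylate dystroglycan 0 were called and 2 had an unadjusted p under 0.05, with Pomk at 0.27 ± 0.09 (limma, adjusted p = 0.257). In the TGF-beta pathway, which induces matrix genes in many cells, 1 of 21 was called higher and 0 lower. That gene was Ltbp3, which stores latent TGF-beta in the matrix, at 0.45 ± 0.10 (limma, adjusted p = 0.0491).

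The calls of these 5 genes were lost in most omissions of 1 array. Rsu1 held in 3 of 8, Tinagl1 in 2, Tns1 in 1, and Ccn2 and Ltbp3 in 0, with adjusted p-values up to 0.068, 0.0998, 0.148, 0.135 and 0.158. The highest came without Zfp125 replicate 3 for Rsu1, replicate 2 for Tinagl1 and Ltbp3, replicate 1 for Tns1 and replicate 4 for Ccn2. All 5 calls ended without variance moderation (adjusted p of 0.0963 to 0.156) and in the fit of all clusters (0.0961 to 0.16). With the replicate block Tinagl1 alone passed (0.0411), and the calls of Rsu1 (0.0542), Tns1 (0.105), Ltbp3 (0.114) and Ccn2 (0.117) ended. Centring each array on its median ended those of Ltbp3 (0.0637), Tns1 (0.0523) and Ccn2 (0.0532). Quantile normalization ended those of Tns1 (0.0552) and Ccn2 (0.0559), and array weights that of Tns1 (0.0561). With its clusters averaged, Ccn2 had a change of 0.31 (adjusted p = 0.217).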

How the data were processed

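Total RNA of 8 samples was measured on Affymetrix mouse gene arrays. The authors deposited a log2 value per array for 41345 transcript clusters, a scale read from the values. Per the submitters' processing notes, their tools were Affymetrix Expression Console and Transcriptome Analysis Console. The sources used here do not state the background correction, the normalization or a genome build.

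Clusters were named through the platform annotation and updated by Entrez identifier; 23521 carried 1 symbol. A gene with several clusters was represented by its brightest, giving 22180 genes. Further clusters of the members come from a fit of all clusters. Two-sided tests used limma 3.58.1 (lmFit and eBayes, R 4.3.3) with Benjamini-Hochberg adjustment. The script was tested on simulated data. Groups come from the sample titles.

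The members and the lists were chosen with earlier results of these data known. Array values were given for the called members, the 2 of each class with the smallest p, and Col4a1, Fn1, Itgb1, Itgb5, Lama4, Lamb2 and Nid1, which were added after their values were seen. From each list of the surrounding pathways the called genes, or else the gene with the smallest p, were named. Listed genes without a cluster of their own symbol are not analysed here. Alternatives covered array centring, quantile normalization, a filter on dim genes, variance moderation, array weights, means of clusters, a replicate block, all clusters in 1 fit (chosen after seeing the data) and leaving out each array. Python 3.11.15, scipy 1.17.1 and matplotlib 3.10.9 were used for the permutations and plots.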

Additional observations from a re-analysis of the deposited data

Results flagged for a closer look

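In 5 of the 74 sets of 4 arrays (37 genes in each group), 1 array lay far from the other 3, past Dixon's 95% critical value for the gap over the range. Chance flags about 1 in 20 such sets, or 3.7 of 74. In Zfp125 cells, Lama4 was lowest on replicate 2 at 4.46, with the next value at 4.58. Col4a2 was highest in Zfp125 replicate 1 at 6.37, with the next at 6.29. Dag1 was lowest in Zfp125 replicate 3 at 8.98, with the next at 9.04. Among EV arrays, Col4a4 was highest on replicate 2 at 4.59, with the next at 4.52, and Itga6 was highest on replicate 1 at 6.31, with the next at 6.07.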

How the results depend on the processing

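With all 8 arrays, 5 members were called higher and 1 lower. Lower calls numbered 2 after quantile normalization, 3 among genes above the median level, 3 with a trended, robust prior, and 0 without variance moderation, with the replicate block or with all clusters in 1 fit. Higher calls numbered 2 without variance moderation, 1 with the replicate block and 1 with all clusters in 1 fit. Leaving out 1 array gave 1 to 3 higher and 0 to 3 lower calls. With the replicate block Ntn4 alone passed (adjusted p = 0.00653) and the calls of Agrn (0.052), Lamc1 (0.0943), Lama5 (0.115), Itga5 (0.0616) and Itgb3 (0.0635) ended. Deviations of same-numbered arrays from their group means correlated at -0.053 to 0.037 over genes, and those of differently numbered arrays at -0.057 to 0.090. Such values cannot tell whether the numbers mark shared cultures or days, and the labels do not say.

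Every called member kept its direction in all these settings. Directions turned when 1 array was left out for members with small changes, whose values ranged from -0.019 to 0.12 for Lama2, -0.16 to 0.013 for Lama3, -0.19 to 0.017 for Col4a3, -0.025 to 0.13 for Itga6, -0.052 to 0.096 for Itgb4 and -0.043 to 0.10 for Itgb8. The median change of the integrins ranged from -0.0091 to 0.096, lowest without Zfp125 replicate 3. The laminin median was 0.35 among genes above the median level, where fewer chains are tested.

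Over all genes, 99 were called higher and 141 lower; there were 183 and 226 above the median level, 228 and 270 with the trended prior, 5 and 21 without moderation, and 49 and 103 with the replicate block. Leaving out 1 array gave 31 to 72 higher and 72 to 120 lower.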
